A study of Homo sapiens with 20 samples.

Results

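The HOX genes are the clustered homeobox genes of the HOXA, HOXB, HOXC and HOXD loci. They were taken as the protein-coding genes of GENCODE v44 whose symbol is HOXA, HOXB, HOXC or HOXD followed by a number. The rule gave 39 genes, 11 in HOXA, 10 in HOXB, 9 in HOXC and 9 in HOXD, of 34439 mRNAs and lncRNAs with transcripts in the data. The NGP nutlin data are poly(A) RNA-seq libraries of NGP, an established human neuroblastoma cell line. One group of 10 samples received nutlin-3 at 8 µM as a racemic mixture, and the other 10 received its vehicle, ethanol. All 20 samples were of the same unmodified line, and the labels name no other agent or allele that separates the groups. The data therefore speak for 1 cell line, and the time of exposure is not given in the sources used here. Nutlin-3 is a small molecule that keeps MDM2 from binding p53.

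HOX genes encode transcription factors that bind DNA through a homeodomain and give cells of the embryo their position along the body axis. Each cluster is read in the order of its paralog numbers, with low numbers active early and toward the head and high numbers active late and toward the tail and limbs. HOX proteins bind DNA together with TALE homeodomain cofactors of the PBX and MEIS families, and their loci are held active by Trithorax proteins and silent by Polycomb proteins. Retinoic acid is a classical inducer of the clusters, and neuroblastoma cells arise from the sympathetic lineage of the trunk neural crest.

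The estimated counts, the numbers of read pairs that kallisto assigned to each transcript, summed to between 14455477 and 19532971 in the vehicle samples and between 15078052 and 17442896 in the nutlin samples. Between 1357 and 1917 of them fell on HOX genes in a vehicle sample and between 1032 and 1314 in a nutlin sample. All 10 neuroblastoma markers examined, HAND2, TH and MYCN among them, averaged 1 CPM or more (CPM, counts scaled to library size), while SOX10 of Schwann cells had 1 count in all and the lymphocyte gene CD3E had 0. The 5 fibroblast markers summed to between 40.2 and 56.2 CPM in vehicle and between 37.4 and 50.3 in nutlin, with COL1A1 up and PDGFRA and LUM down. The summed CPM of the 4 Schwann markers (1 of 3 tested fell) ran from 1.196 to 2.96 and from 0.853 to 1.78, that of the 4 leukocyte markers (LYZ up) from 1.85 to 3.12 and from 3.54 to 6.48, and that of the 3 endothelial markers (PECAM1 up, VWF down) from 1.10 to 2.23 and from 1.03 to 2.46. Their part in the HOX values was not tested. MDM2, a p53 target that marks exposure to the drug, rose 22.7-fold. In these bulk samples fewer cells of a type and less RNA per cell cannot be told apart.

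HOX expression in NGP cells came mainly from HOXC and HOXD. On the TPM scale, which corrects counts for transcript length and library size, the HOX genes of a vehicle sample summed to 74.2 ± 5.30 (SD, n = 10). HOXC supplied 54.8% ± 2.06 of this sum and HOXD 37.6% ± 2.15, against 7.15% ± 1.28 for HOXA and 0.411% ± 0.182 for HOXB. HOXC4 alone gave 40.2% of the HOX TPM of the vehicle samples, HOXD3 14.1% and HOXD8 9.93%. In HOXA the signal was nearly all HOXA7, which gave 6.00%.

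The profile along the clusters was broken rather than graded. HOXC was high at HOXC4, the member with the lowest number, lower at HOXC5, HOXC6 and HOXC9 with HOXC8 below all of these, and near 0 at HOXC11 and HOXC12. HOXD was high at HOXD3, HOXD4, HOXD8 and HOXD9, low from HOXD10 to HOXD12 and present again at HOXD13, at its posterior end. HOXA7 stood at 4.49 ± 1.14 TPM (SD, n = 10) in vehicle, while its neighbours HOXA5 and HOXA6 were at 0.349 ± 0.207 and 0.435 ± 0.266. No HOXB gene reached 1 CPM in either condition, and HOXB7, at 0.234 ± 0.141 TPM, was the most abundant of that cluster in vehicle. In vehicle, 10 of the 39 genes had a mean of at least 1 TPM, 7 were between 0.1 and 1, and 22 were below 0.1.

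**Figure D1:**
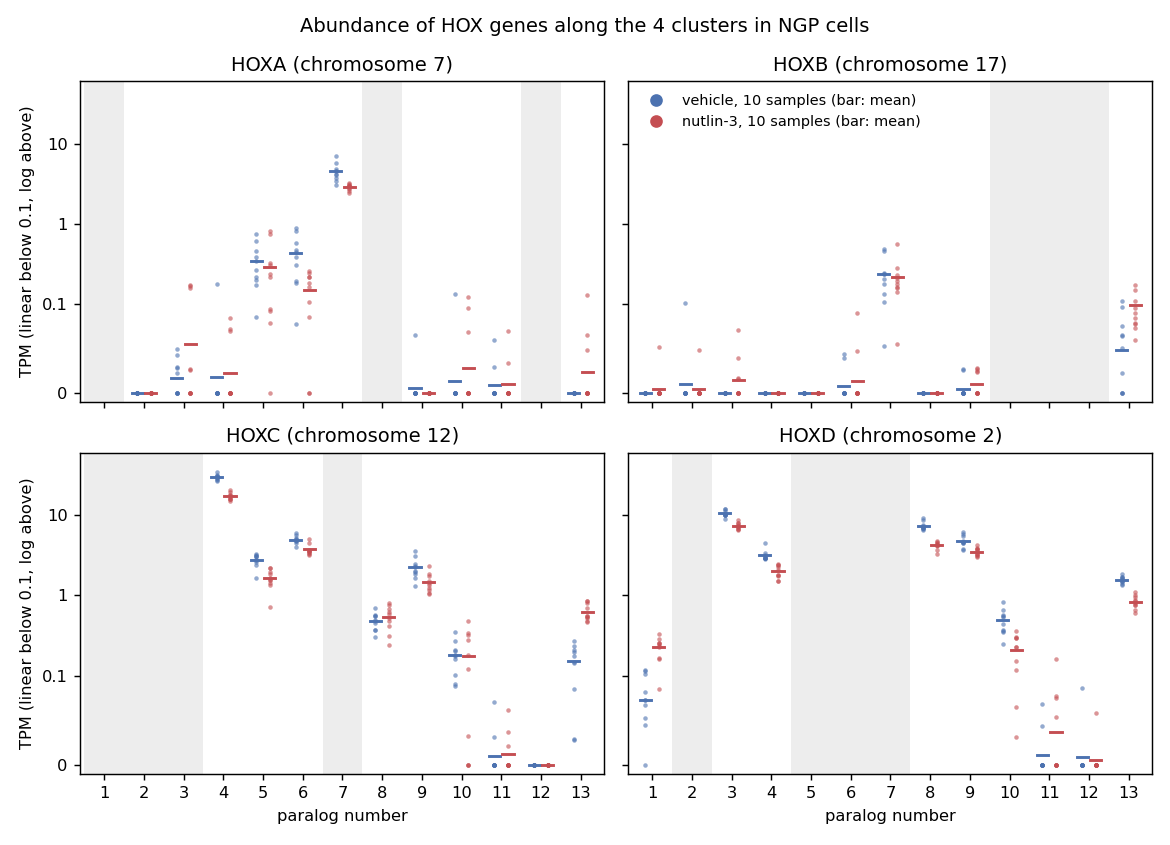
TPM of HOX genes against paralog number, 1 panel for each cluster, with points for the 10 vehicle and 10 nutlin samples and bars for their means. The axis is linear below 0.1 TPM and logarithmic above, and grey columns mark paralog numbers with no gene shown. HOXC4 is highest, at a mean of 29.9 TPM in vehicle and 17.2 in nutlin, and HOXB stays below 1 TPM throughout.

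The order of levels per length was the same in both conditions for the 11 genes that averaged 1 CPM or more in either condition. In vehicle HOXC4 came first at 29.9 ± 2.36 TPM (SD, n = 10), followed by HOXD3 at 10.5 ± 0.958, HOXD8 at 7.38 ± 0.884, HOXC6 at 4.95 ± 0.571, HOXD9 at 4.78 ± 0.789, HOXA7 at 4.49 ± 1.14, HOXD4 at 3.15 ± 0.499, HOXC5 at 2.79 ± 0.489, HOXC9 at 2.25 ± 0.681, HOXD13 at 1.56 ± 0.148 and HOXC13 at 0.151 ± 0.0823. The ranges of the samples separated HOXC4 from HOXD3, HOXD8 from HOXC6 and HOXD13 from HOXC13, and every other pair of neighbours in this order overlapped. In nutlin the ranges separated HOXC4 from HOXD3 and HOXD3 from HOXD8, and HOXC13 now overlapped HOXD13. Among the 18495 mRNAs with a count in any sample, HOXC4 lay at percentile 79.2 of vehicle TPM, HOXD3 at 60.7 and HOXD13 at 39.7.

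Most of the remaining 28 genes were near the detection limit. In all 20 samples together, 18 of the 39 had fewer than 10 counts, and 5 of these (HOXA2, HOXB4, HOXB5, HOXB8 and HOXC12) had 0, which allows up to 0.0170 CPM over the vehicle group and 0.0188 over the nutlin group. These limits take 3 counts over a group and cover counting error only. A further 5 genes of HOXA and HOXB had counts in 1 condition only, at most 4 in total. These 10 genes were not tested, and 29 genes were.

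The 250 bases before the start of the leading transcript, the transcript with most counts, were examined for the 5 HOXD genes of at least 1 CPM (HOXD3, HOXD4, HOXD8, HOXD9 and HOXD13). They are shown for HOXD13, which has the lowest log2 fold change of the abundant genes, and HOXD9, which has the same E-box. No annotated exon lies in these windows. The sequences were read from GRCh38, 5′ to 3′ on the plus strand that these genes use. Capitals mark CACGTG (the E-box bound by MYC and MYCN), TATAAA and CCAAT, each searched on both strands, so that ATTGG is CCAAT on the other strand and TTTATA overlaps TATAAA in HOXD13.

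HOXD13, chr2:176092471-176092720: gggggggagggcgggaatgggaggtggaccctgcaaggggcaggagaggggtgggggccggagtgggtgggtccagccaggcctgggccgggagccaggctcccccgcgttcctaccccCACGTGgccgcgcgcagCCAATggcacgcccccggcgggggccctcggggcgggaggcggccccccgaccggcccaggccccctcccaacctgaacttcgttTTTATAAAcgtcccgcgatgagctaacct

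HOXD9, chr2:176122469-176122718: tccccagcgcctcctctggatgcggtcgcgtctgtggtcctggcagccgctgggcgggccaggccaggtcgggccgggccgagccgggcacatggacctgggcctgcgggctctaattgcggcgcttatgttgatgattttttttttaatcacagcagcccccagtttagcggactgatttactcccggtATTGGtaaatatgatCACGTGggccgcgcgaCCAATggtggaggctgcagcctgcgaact

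Windows of the same length before all 20044 protein-coding genes gave the frequency of each motif. CACGTG occurred in 2 of the 5 HOXD windows, at -131 in HOXD13 and at -45 in HOXD9 counted from the start, and in 7.86% of all windows. CCAAT occurred in 3 (HOXD4, HOXD9 and HOXD13) and in 34.3% of all windows. TATAAA occurred in 1 (HOXD13), at -27, and in 9.34% of all windows. The site for PBX with HOX, searched as TGATNNAT, the p53 core quartet CATG repeated after 6 bases and the retinoic acid receptor motif AGGTCA repeated after 5 bases were in none of the 5, and in 4.19%, 0.22% and 0% of all windows. All 5 genes fell, with and without these motifs, so these 5 windows cannot inform on the direction of change. Windows of the other clusters are not reported here. The starts are those of GENCODE v44, and for 3 of the 5 leading transcripts the length there differed from that in the data, by up to 328 bases, so the start the authors quantified may lie elsewhere.

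The comparison of the conditions asked which HOX genes changed after nutlin-3. The summed HOX TPM was lower in nutlin, at 47.6 ± 2.62 (SD, n = 10). The sums ran from 67.1 to 83.2 in vehicle and from 44.8 to 52.1 in nutlin, without overlap. The makeup by cluster changed little, with HOXC at 53.3% ± 2.18, HOXD at 38.6% ± 1.99, HOXA at 7.24% ± 0.779 and HOXB at 0.769% ± 0.355 of the nutlin sum. Among single genes, the share of HOXC4 was 36.03% ± 2.54 in nutlin against 40.2% ± 2.12 in vehicle.

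Of the 29 genes tested, 12 fell and 3 rose at 5% FDR (edgeR quasi-likelihood test with Benjamini-Hochberg adjustment over all 27697 genes tested, below edgeR QL). The fallers were 41.4% of the HOX genes tested and the risers 10.3%. Over all genes tested, lncRNAs included, 26.5% fell and 32.3% rose. Over all mRNAs tested, the class of the HOX genes, 38.5% fell and 32.4% rose, so the share of fallers was near that of mRNAs. HOX genes that fell were HOXA6, HOXA7, HOXC4, HOXC5, HOXC6, HOXC9, HOXD3, HOXD4, HOXD8, HOXD9, HOXD10 and HOXD13, and those that rose were HOXB13, HOXC13 and HOXD1. All 10 genes that averaged 1 CPM or more in both conditions fell, by between 22.5% and 45.8%, beside 43.9% of all genes of at least 1 CPM in a condition and 39.9% of mRNAs in the CPM range of the 11 HOX genes of at least 1 CPM in a condition. The gene that reached 1 CPM in nutlin only, HOXC13, rose, beside 36.6% of all genes of at least 1 CPM and 37.8% of mRNAs in the same CPM range. Every nutlin sample was below every vehicle sample for 5 of the 11, beside 22.6% of mRNAs in the same CPM range. For 1 of the 11 every nutlin sample was above every vehicle sample, beside 19.7% of these mRNAs. Of the 18 tested genes below 1 CPM, 2 fell and 2 rose, beside 3.25% and 26.5% of all such genes. The median log2 fold change (LFC, nutlin against vehicle) was -0.037 over the 29 HOX genes tested and -0.56 over the 11 of at least 1 CPM. It was 0.19 over all genes tested, -0.0056 over mRNAs tested and -0.020 over mRNAs in the same CPM range.

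**Figure D2:**
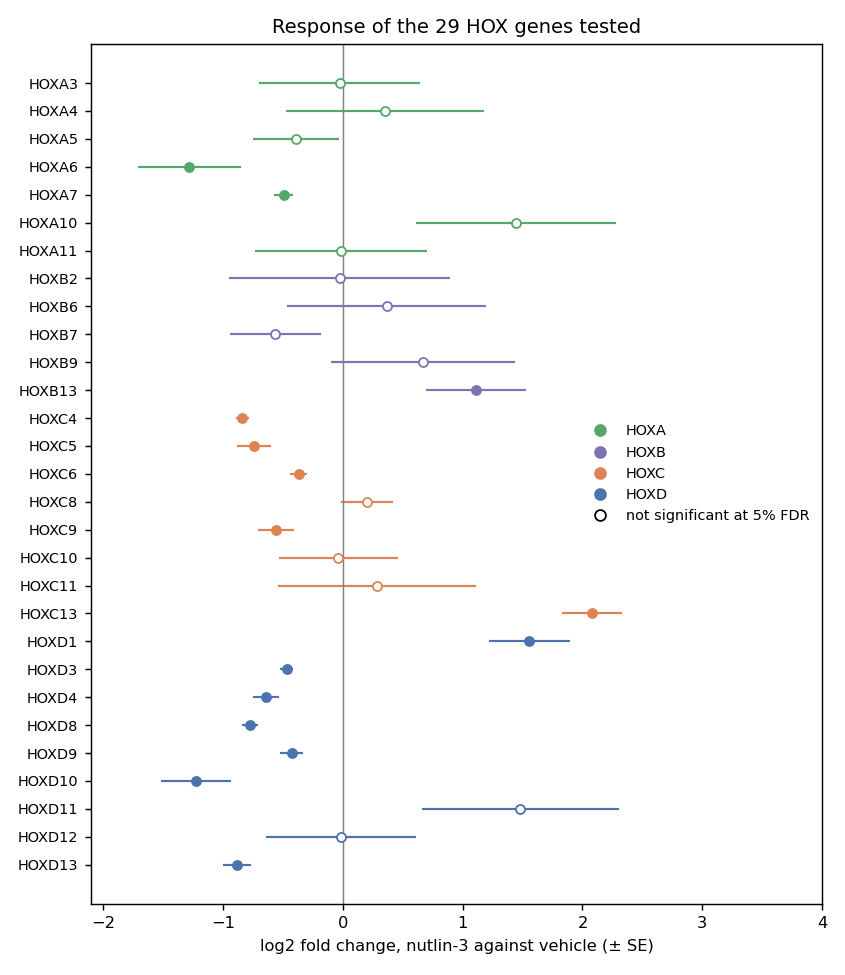
LFC of nutlin-3 against vehicle with its SE for the 29 HOX genes tested, in cluster order and coloured by cluster, filled where significant at 5% FDR. Narrow bars left of 0 are HOXA7 and the abundant genes of HOXC and HOXD, and HOXC13 lies farthest right among the filled points, at 2.08.

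In the anterior and central part of HOXC, 4 of the 5 genes with paralog numbers 4 to 9 fell, beside 38.5% of all mRNAs tested. HOXC4, a paralog group 4 gene on chr12:54016931-54056030, had 37.6 CPM in the lowest vehicle sample, 40.1 at the median and 48.1 in the highest, against 20.1, 22.7 and 26.1 in nutlin. Every nutlin sample was below every vehicle sample, as was seen for 16.6% of all genes tested and 29.0% of those of at least 1 CPM. The LFC was -0.84 (SE 0.054, adjusted p = 2.75e-14 by edgeR QL), a decrease to 0.559 of the vehicle level.

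HOXC5, on chr12:54033050-54035361 within the long HOXC4 gene, had 2.72, 4.55 and 5.71 CPM (lowest, median and highest) in vehicle and 1.18, 2.70 and 3.49 in nutlin. The groups overlapped, with 6 nutlin samples below all vehicle samples, and the LFC was -0.74 (SE 0.14, adjusted p = 3.33e-05 by edgeR QL). Of the 31-base words of its leading transcript, 66.8% also occur on the same strand in transcripts of other genes, mainly the overlapping lncRNA ENSG00000273046, so its counts are uncertain. HOXA7 aside, the leading transcripts of the other 9 genes of at least 1 CPM share at most 6.19% of words with other genes. This holds on either strand, and the highest share is that of HOXC13 with HOXC13-AS. The words are those of GENCODE v44, where HOXD4-201 has 1136 bases against 1464 in the data. Its estimated counts were whole numbers in 0% of samples, so its reads may be shared with transcripts through bases not compared. ENSG00000273046 had a median of 1.03 CPM in vehicle and 0.454 in nutlin, and did not pass the test (adjusted p = 0.285 by edgeR QL).

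HOXC6 and HOXC9 changed less. HOXC6, which with HOXC8 and HOXC9 marks thoracic levels of the embryo, had 5.82, 7.33 and 7.74 CPM in vehicle and 4.45, 5.58 and 6.25 in nutlin, an LFC of -0.37 (SE 0.073, adjusted p = 7.08e-05 by edgeR QL). HOXC9 had 1.63, 2.43 and 3.39 CPM in vehicle and 0.920, 1.62 and 2.25 in nutlin, an LFC of -0.56 (SE 0.15, adjusted p = 0.00204 by edgeR QL). Both genes overlapped between groups, with 6 nutlin samples below the vehicle range in each. HOXC8, which lies between them, had 0.801 CPM at the vehicle median and 0.905 at the nutlin median and did not pass (LFC 0.20, SE 0.22, adjusted p = 0.447 by edgeR QL).

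At the other end of the cluster HOXC13 rose. This gene, known for its role in hair and nail formation, lies on chr12:53938831-53946544. It had 1 to 8 counts in a vehicle sample and 15 to 32 in a nutlin sample, which is 0.058, 0.341 and 0.537 CPM (lowest, median and highest) in vehicle and 1.03, 1.26 and 1.98 in nutlin. The groups did not overlap, as was seen upward for 12.2% of all genes tested and 19.5% of those of at least 1 CPM. The LFC was 2.08 (SE 0.25, adjusted p = 1.93e-08 by edgeR QL), a 4.22-fold increase, and HOXC13 was the gene that passed the filter of 1 CPM through the nutlin group alone. HOXC10 and HOXC11, between HOXC9 and HOXC13, had at most 5 counts in a sample, and neither passed the test.

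In HOXD, 6 of the 9 genes fell and 1 rose, beside 38.5% and 32.4% of all mRNAs tested. HOXD3, a paralog group 3 gene on chr2:176136612-176173102, had 17.3, 21.2 and 22.0 CPM (lowest, median and highest) in vehicle and 13.5, 14.4 and 17.4 in nutlin, an LFC of -0.47 (SE 0.056, adjusted p = 1.90e-08 by edgeR QL). The ranges touched through 1 vehicle sample and 1 nutlin sample, and 9 nutlin samples were below all vehicle samples. HOXD4 had 3.55, 3.74 and 5.20 CPM in vehicle and 1.98, 2.43 and 3.33 in nutlin, an LFC of -0.64 (SE 0.11, adjusted p = 8.93e-06 by edgeR QL), without overlap.

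HOXD8 and HOXD9 stand next to each other on chr2:176122719-176132695. HOXD8 had 8.995, 9.39 and 11.2 CPM in vehicle and 4.82, 5.59 and 6.66 in nutlin, an LFC of -0.77 (SE 0.067, adjusted p = 2.46e-11 by edgeR QL), without overlap. HOXD9 had 6.11, 7.56 and 9.61 CPM in vehicle and 4.70, 5.86 and 6.89 in nutlin, an LFC of -0.43 (SE 0.095, adjusted p = 2.65e-04 by edgeR QL). Its groups overlapped, with 6 nutlin samples below the vehicle range.

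HOXD13, a gene of digit and limb formation at the end of the cluster on chr2:176092721-176095944, had the lowest LFC of the genes of at least 1 CPM. It had 2.69, 3.04 and 4.13 CPM in vehicle and 1.26, 1.69 and 2.35 in nutlin, without overlap, an LFC of -0.88 (SE 0.12, adjusted p = 1.73e-07 by edgeR QL). HOXC13 and HOXD13, paralogs at the same position of their clusters, thus moved in opposite directions. HOXD1, at the opposite end of HOXD, had 0 to 4 counts in a vehicle sample and 2 to 9 in a nutlin sample, and rose (LFC 1.56, SE 0.34, adjusted p = 2.03e-04 by edgeR QL), with 9 of 10 nutlin samples above the highest vehicle sample. HOXD10, with 4 to 20 counts in vehicle and 1 to 10 in nutlin, fell (LFC -1.22, SE 0.29, adjusted p = 6.20e-04 by edgeR QL).

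**Figure D3:**
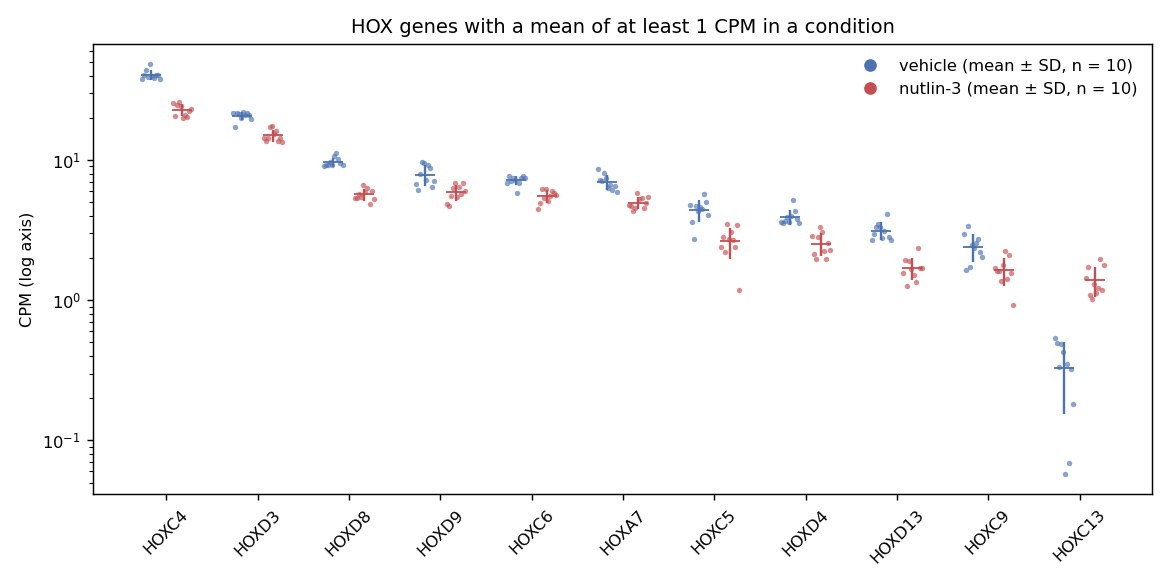
CPM on a log axis of the 11 HOX genes that averaged 1 CPM or more in a condition, in order of vehicle level, with 1 point for each of the 10 vehicle and 10 nutlin samples and mean ± SD. HOXC4, HOXD8, HOXA7, HOXD4 and HOXD13 are lower in all nutlin samples, and HOXC13 is higher in all.

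In HOXA, 2 of the 7 genes tested fell and none rose, beside 38.5% and 32.4% of all mRNAs tested. HOXA7, a paralog group 7 gene on chr7:27153716-27157936, had 5.90, 6.82 and 8.59 CPM in vehicle and 4.33, 4.84 and 5.80 in nutlin, an LFC of -0.49 (SE 0.080, adjusted p = 4.02e-06 by edgeR QL), without overlap. Of the 31-base words of its leading transcript, 74.6% occur on the opposite strand in HOXA-AS3, an antisense lncRNA with a vehicle median of 0.243 CPM. Whether the counting used strand is not given in the sources used here, so reads of this pair may not be told apart. HOXA6, with 1 to 9 counts in a vehicle sample and 0 to 3 in a nutlin sample, had an LFC of -1.28 (SE 0.43, adjusted p = 0.0118 by edgeR QL). Its call was lost when only transcripts of the type protein_coding were counted (LFC -0.61, adjusted p = 0.332 by edgeR QL). HOXA5 overlapped between groups and did not pass (LFC -0.39, adjusted p = 0.366 by edgeR QL).

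HOXB was nearly silent in both conditions. Of its 5 genes tested, HOXB13, a gene of the tail end of the axis and of prostate, rose from 0 to 5 counts in a vehicle sample to 3 to 8 in a nutlin sample. The LFC was 1.11 (SE 0.42, adjusted p = 0.0237 by edgeR QL), and the groups overlapped. On the 16 samples that share a replicate number it did not pass, with an LFC of 0.93 and an adjusted p of 0.0867 by edgeR QL, and of 1.02 and 0.104 with the number as a block. HOXB7, with 1 to 9 and 1 to 4 counts, did not pass (LFC -0.56, adjusted p = 0.215 by edgeR QL). HOXB2, HOXB6 and HOXB9 had at most 2 counts in a sample.

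By position, 7 of the 12 tested genes with paralog numbers 4 to 8 fell and 0 rose, of the 15 in that range. Among numbers 9 to 13, 4 of 13 fell and 2 rose, and among numbers 1 to 3, 1 of 4 fell and 1 rose. The median LFC was -0.53, -0.012 and -0.025 in these 3 ranges. Of all genes tested 26.5% fell and 32.3% rose, and of all mRNAs tested 38.5% and 32.4%. The range 4 to 8 holds 6 of the 11 genes of at least 1 CPM, the range 9 to 13 holds 4 and the range 1 to 3 holds 1.

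The isoforms behind these sums were compared by the share of a gene's counts on its leading transcript, for the 6 genes of at least 1 CPM with 2 or more transcripts with counts. HOXC4-202, the short coding transcript at the end of the HOXC4 gene, held 97.4% ± 0.824 of HOXC4 counts (SD, n = 10) in vehicle and 95.3% ± 1.503 in nutlin. This difference of -2.098 percentage points passed a two-sided permutation test (p = 3.80e-04, adjusted p = 0.00228 over the 6 genes, 100000 resamples), but not when only protein_coding transcripts were counted (adjusted p = 0.443 by the same permutation test). The counts of HOXC4-203, a transcript with no defined coding region, were 14.5 ± 4.07 in vehicle and 14.4 ± 3.88 in nutlin, while those of HOXC4-202 were 602.4 ± 59.8 and 339.3 ± 38.7.

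The other 5 shares did not pass, with adjusted p from 0.153 to 0.235 by the permutation test. HOXD3-201 held 85.6% ± 5.14 of HOXD3 in vehicle and 81.2% ± 4.41 in nutlin, and HOXA7-201 held 96.9% ± 4.58 and 98.8% ± 1.09 of HOXA7. HOXD8 was divided over 3 transcripts, with 49.8% ± 7.72 and 44.6% ± 6.17 on HOXD8-202. Of the 2 coding transcripts of HOXC9, almost only 1 or the other received counts in a sample. HOXC9-202, which has no defined coding region, held up to 9.11 counts in a vehicle sample and 9.02 in a nutlin sample. In nutlin replicate 11 it had 6.71 counts beside 7.29 of HOXC9-203. HOXC9-201 held under 1% of the counts in 4 vehicle and 2 nutlin samples and at least 75% in the other 6 and 8, with no sample in between, and HOXC9-203, which begins upstream of it, exceeded HOXC9-201 in those 4 and 2 samples. The gene sum of HOXC9 is therefore given here in place of its isoforms.

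**Figure D4:**
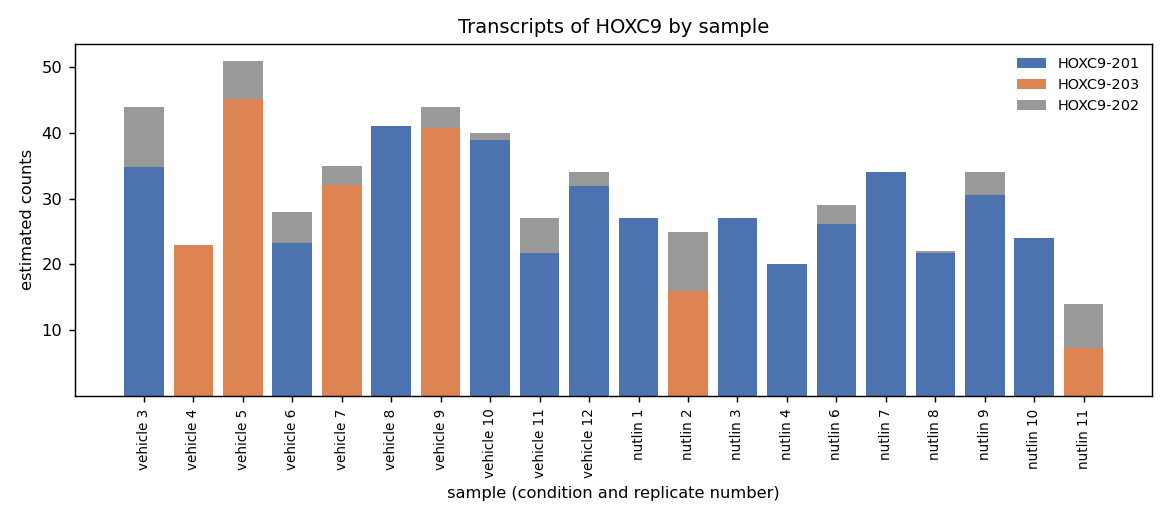
Estimated counts of the 3 HOXC9 transcripts in each of the 20 samples, stacked to the gene sum. HOXC9-203 takes the place of HOXC9-201 in 4 vehicle samples and 2 nutlin samples.

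Of 18 lncRNAs named for the HOX clusters, 8 were tested, 2 fell and 1 rose, with a median LFC of -0.70 over those tested, beside 6.36% and 32.0% of all lncRNAs. HOXD-AS2, the most abundant per length, had 7.03, 10.2 and 12.1 CPM (lowest, median and highest) in vehicle and 3.76, 4.65 and 6.01 in nutlin, an LFC of -1.0003 (SE 0.1103, adjusted p = 3.46e-09 by edgeR QL). HAGLR, which overlaps HOXD3 and HOXD1, had 8.19, 9.82 and 12.9 CPM in vehicle and 4.63, 5.72 and 6.69 in nutlin, an LFC of -0.78 (SE 0.079, adjusted p = 7.41e-10 by edgeR QL). Neither lncRNA overlapped between groups, as was seen downward for 1.55% of all lncRNAs tested. Among all genes of at least 1 CPM, a level both lncRNAs exceed, the share was 29.0%. HOTAIR, an antisense lncRNA on chr12:53962308-53974956 in HOXC, had 20 counts over the vehicle samples and 69 over the nutlin samples and rose (LFC 1.70, SE 0.32, adjusted p = 2.76e-05 by edgeR QL). The 4 lncRNAs HOXB-AS1 to HOXB-AS4 had 0 counts in all 20 samples, like HOXB4, HOXB5 and HOXB8 of the same cluster. HOTTIP, at the HOXA13 end of HOXA, had 0 counts in vehicle and 13 over the nutlin samples and was not tested.

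All 11 genes of the TALE cofactor list were tested. It holds the PBX and MEIS partners of HOX proteins and, beside them, PKNOX and TGIF genes of the same homeodomain class. Of the 11 genes 9 fell, TGIF1 and TGIF2 among them, and 2 rose, beside 38.5% and 32.4% of all mRNAs, with a median LFC of -0.58. MEIS2, the most abundant, fell from a median of 250.4 CPM to 87.7 (LFC -1.52, SE 0.035), MEIS1 from 188.8 to 73.7 (LFC -1.37, SE 0.031) and PBX3 from 25.7 to 7.80 (LFC -1.72, SE 0.057). None of these 3 overlapped between groups, as was seen downward for 25.6% of all mRNAs tested. The risers were MEIS3 (LFC 0.50, SE 0.056) and PKNOX2 (LFC 2.29, SE 0.37), the latter below 1 CPM.

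Of 27 Trithorax and Polycomb regulators, all tested and all of at least 1 CPM, 18 fell and 6 rose, with a median LFC of -0.43, beside 43.9% and 36.6% of all genes of at least 1 CPM. On the Polycomb side EZH2, the methyltransferase that places the H3K27 mark, fell by 1.61 on the log2 scale (SE 0.046), its partner SUZ12 fell by 1.16 (SE 0.061) and CBX2, a reader of the mark, fell by 1.28 (SE 0.033). KDM6A (LFC 1.19, SE 0.071) and KDM6B (LFC 1.04, SE 0.038), which remove the mark, rose. MLLT3, a subunit of elongation complexes and fusion partner of KMT2A, fell by 1.83 (SE 0.070), and CTCF, which binds the boundaries within the clusters, fell by 1.07 (SE 0.034). DPY30, the most abundant per length and a subunit of the methyltransferase complexes of Trithorax type, fell by 0.82 (SE 0.055), while KMT2A itself did not pass (LFC -0.055, SE 0.041, adjusted p = 0.258 by edgeR QL).

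Of 20 retinoid and CDX inputs, 17 were tested, 8 rose and 4 fell, with a median LFC of 0.48, beside 32.4% and 38.5% of all mRNAs. STRA6, the membrane receptor for retinol uptake and the most abundant of the list, rose from a median of 317.7 CPM to 715.0 (LFC 1.17, SE 0.047). DHRS3, which reduces retinal, rose from 5.74 to 19.5 (LFC 1.79, SE 0.071). The 4 that fell were the receptors RXRA (LFC -0.86, SE 0.063), RARG (LFC -0.57, SE 0.065) and RARB (LFC -0.29, SE 0.10) and the retinoic acid carrier CRABP2 (LFC -0.56, SE 0.079). The receptors RARA (LFC 0.54, SE 0.038), RXRB (LFC 0.36, SE 0.033) and RXRG (LFC 0.65, SE 0.22) and the carrier CRABP1 (LFC 0.58, SE 0.18) were among the 8 that rose. CDX1 and CDX4, activators of central HOX genes, had 0 counts in all samples. Of the 6 ParaHOX genes, sister genes of the HOX clusters that include the CDX genes, 1 was tested and did not pass, PDX1 with 4 counts in each condition.

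**Figure D5:**
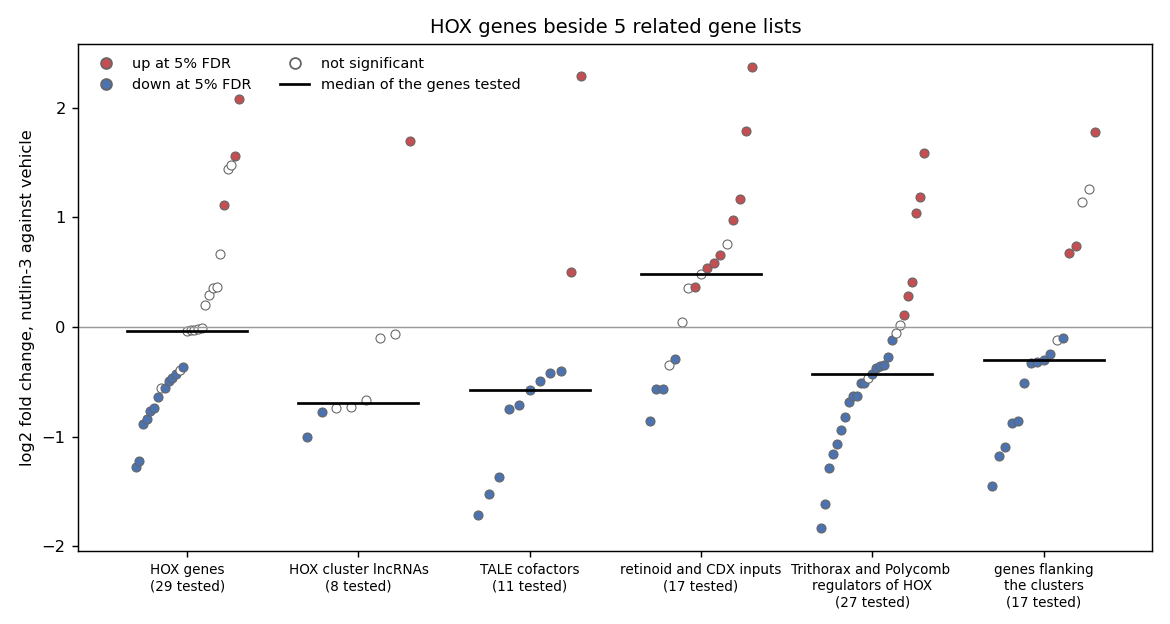
LFC of nutlin-3 against vehicle for the HOX genes tested and 5 related gene lists, each point a gene and each bar the median of the genes tested. The TALE cofactors have 9 points below 0 and 2 above, and the retinoid and CDX inputs have a median of 0.48.

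Of 20 genes that flank the clusters, 17 were tested, 11 fell and 3 rose, with a median LFC of -0.30, beside 38.5% and 32.4% of all mRNAs. HIBADH (LFC -1.18, SE 0.079) and SNX10 (LFC -1.09, SE 0.17) beside HOXA and CBX1 (LFC -1.45, SE 0.031) beside HOXB fell, although HOXB itself was nearly silent. HNRNPA1, the most abundant of the list, fell by 0.10 (SE 0.038). EVX2, the homeobox gene next to HOXD13, rose from a median of 1.49 CPM to 2.45 (LFC 0.74, SE 0.15) where HOXD13 fell. CALCOCO1 rose from a median of 43.9 CPM to 69.9 (LFC 0.68, SE 0.043). NFE2 and EVX1 had 0 counts in vehicle and 28 and 15 over the nutlin samples, and were not tested. LINC02086, a lncRNA on chr17:48646923-48707346 within the HOXB interval, was picked out after its values were seen. It had 6 counts over the vehicle samples and 151 over the nutlin samples, without overlap, as was seen upward for 8.32% of all lncRNAs tested (LFC 4.36, SE 0.44, adjusted p = 6.51e-10 by edgeR QL).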

How the data were processed

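RNA-seq of NGP cells was taken from 20 kallisto tables, 10 vehicle and 10 nutlin, with conditions and replicate numbers from the labels. The authors quantified reads with kallisto v0.42.4 on GRCh38 transcripts (Ensembl v85) and deposited estimated counts and TPM for 198968 transcripts, with lengths in bases, without further normalization.

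Of the transcripts, 191106 (96.05%) matched GENCODE v44. The unmatched held 3.22% to 3.34% of the counts in vehicle and 4.05% to 4.29% in nutlin, and were not used. The estimated counts of a gene's transcripts were added and rounded. TPM was summed without a test. Genes with 1 or more counts in each condition entered the test, made with edgeR 4.0.16 in R 4.3.3 (TMM, quasi-likelihood F-test, condition only, Benjamini-Hochberg adjustment, 5% FDR). CPM used TMM library sizes. The test was checked on simulated counts with 200 changed genes. Transcript shares were compared by a permutation test with 100000 resamples. Windows were read from GRCh38 and words of 31 bases compared among GENCODE v44 transcripts.

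The members and lists were chosen with earlier results of these data known. HOX genes of at least 1 CPM are given with values and the others by counts and ranges. From each list, SDE members with an absolute LFC of at least 1 and a mean of at least 1 CPM and the most abundant member are named, with further genes as examples chosen after their values were seen. Some items, among them a few genes and upstream windows, are not reported here. The study describes the samples as biological replicates, and no 2 had identical counts.

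Alternatives were DESeq2 1.42.0 and its size factors, limma voom 3.58.1, filterByExpr (minimum count 10), no filter, an effective length offset, protein_coding transcripts only, no transcripts spanning other HOX genes (17 of 105), unmatched counts in library sizes, 1% FDR, the replicate block, and each replicate left out. The same 16 samples without the block were added after seeing the data. Plots and sums used matplotlib 3.10.9, pandas 2.3.3 and numpy 2.4.6, and the permutation test scipy 1.17.1, in Python 3.11.15.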

Additional observations from a re-analysis of the deposited data

Results flagged for a closer look

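In 42 groups of 10 samples, 7 had a sample whose gap to its nearest neighbour exceeded Dixon's critical share of the group's range, and chance alone gives this in about 5% of groups. Among gene levels, HOXC6 was lowest in vehicle replicate 8 at 5.82 CPM (next 6.85, group median 7.33). HOXD3 was lowest in vehicle replicate 4 at 17.3 CPM (next 19.7, median 21.2), and HOXD4 was highest in vehicle replicate 9 at 5.20 CPM (next 4.34, median 3.74). Among transcript shares, the leading transcript of HOXA7 held 84.5% in vehicle replicate 9 (next 96.0%, median 98.0%), that of HOXC4 held 91.7% in nutlin replicate 9 (next 94.6%, median 95.6%) and that of HOXD8 held 30.1% in vehicle replicate 5 (next 46.0%, median 51.7%). The HOXB genes summed to 0.779 TPM in nutlin replicate 2 (next 0.421, median 0.325). With each replicate left out in turn, the calls stayed at 12 HOX genes down and 3 up in all 20 fits.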

How the results depend on the processing

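Over the alternatives the HOX genes that fell numbered 10 to 12 and those that rose 1 to 4, and of the genes of at least 1 CPM 10 fell and 1 rose in every alternative. No HOX gene called changed direction. With filterByExpr 12 HOX genes were tested, and 1 rose. In that fit 0 HOX cluster lncRNAs rose, against 1 (HOTAIR), and 1 TALE cofactor, against 2. This filter removes genes of low count from the test. The median LFC over the genes tested differed by -0.155 with filterByExpr and by 0.109 with no filter, each over a different set of genes. In each of the 3 alternatives run for the related lists, 3 retinoid and CDX inputs fell, against 4, and 10 flanking genes, against 11. By CPM, which is not corrected for length, HOXC held 50.7% in vehicle and 48.2% in nutlin, and HOXD 41.9% and 43.4%. By TPM of protein_coding transcripts HOXD held 40.7% in nutlin. Of single genes, HOXA6 lost its call with protein_coding transcripts only, HOXB13 on the 16 samples with a shared number, and both at 1% FDR. The cause was not tested. Samples with the same number correlated in their deviations by -0.0477 to 0.0773 over 8 pairs. Correlations this near 0 cannot tell whether such samples were treated together, and the labels do not say what a number marks. With the replicate block, 12 HOX genes fell and 2 rose. Depth limits the 18 HOX genes with fewer than 10 counts in all 20 samples, of which none was called.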
